A study of Homo sapiens with 9 samples.

Results

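Integrins are the cell surface receptors that tie the extracellular matrix to the actin cytoskeleton, and focal adhesion adaptors are the proteins that make that link inside the cell. Here 48 of the 18364 genes in the deposited RNA table were described. They were chosen by name. A search for genes with an integrin symbol and an integrin subunit name gave 24 subunits (17 alpha and 7 beta) and 4 further genes whose names begin in the same way but which encode no subunit (ITGB3BP, ITGB1BP1, ITGB1BP2 and ITGBL1). A fixed list added 20 adaptors. ITGA8 and ITGB6 were not analysed here.

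LN229 is a long-established line of human glioblastoma cells, and the tumours grew from LN229 cells injected into the brains of nude mice and taken at the terminal stage. TAZ is a transcriptional co-activator, and in TAZ-4SA serines that the Hippo pathway kinases phosphorylate are replaced. The injected cells expressed TAZ-4SA in 6 tumours and held an empty vector (EV) in 3. The labels name no other treatment, every tumour comes from 1 line, and nude mice lack mature T cells but keep macrophages, microglia and natural killer cells. The comparison asks which genes differ in glioblastoma tumours with active TAZ, in a series about thioredoxin reductase and disulfidptosis, a death of cells whose actin cytoskeleton is under disulfide stress.

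As background, each integrin is a pair of 1 alpha and 1 beta subunit, and the pair decides which ligand is bound: laminins, collagens, proteins with an RGD sequence such as fibronectin and vitronectin, or counter-receptors on other cells. Talin and kindlin bind the beta subunit's tail and switch the receptor to its binding form, and vinculin, the complex of ILK, PINCH and parvin, paxillin, tensins and the zyxin family then connect it to actin. Focal adhesion kinase and SRC signal from the same site. In glioblastoma, integrins are studied for their part in invasion along brain matrix and vessels. TAZ acts with TEAD factors, and the tension carried by focal adhesions is among the inputs that control it.

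Levels are in CPM, the reads of a gene scaled to the size of its library, after the prior that the authors added was taken off. Where 3 EV values are listed, they are those of EV tumours 1, 2 and 3 in that order, and are not sorted by size. Libraries held 3144861 to 31468135 reads in TAZ-4SA and 17314672 to 21576264 reads in EV. The TAZ-4SA libraries stood apart in detection, with 2990 to 7365 genes at 0 reads, against 505 to 622 in EV. Calls of members that changed when 1 tumour was left out are given beside the gene. WWTR1, the gene of TAZ, averaged 331 ± 74.6 CPM in TAZ-4SA (SD, n = 6) and 119.6 ± 3.17 CPM in EV (SD, n = 3). Its exact two-sided permutation p was 0.02381, the smallest that the form of the test used can give for 6 and 3 tumours. Reads of the construct and of the resident gene cannot be told apart. Summed over 8 markers, genes usual in glioblastoma lines gave 2402 to 3793 CPM in TAZ-4SA and 3374 to 3737 CPM in EV, most of it from the intermediate filament gene VIM. Of the 8, EGFR and CD44 were called higher, with means of 375 and 309 CPM in TAZ-4SA and 10.35 and 97.6 CPM in EV. NES and S100B were called lower, with 158 and 2.95 CPM in TAZ-4SA and 1324 and 208 CPM in EV. VIM, GFAP, SOX2 and OLIG2 were not called, and the last 3 averaged 22.6, 10.8 and 4.19 CPM in TAZ-4SA and 12.6, 37.9 and 35.0 CPM in EV. GFAP had a median of 2.85 CPM and a highest value of 103.6 CPM in TAZ-4SA, against a median of 14.1 CPM in EV. For SOX2 and OLIG2 every TAZ-4SA tumour lay below every EV tumour, as for 21.3% of all genes tested. Among lists for other cells, the sum over 6 neuronal markers was 84.5 to 1253 CPM in TAZ-4SA, with tumours 5 and 6 highest, against 29.5 to 128 CPM in EV. The sums over 5 oligodendrocyte markers were 8.52 to 319.9 CPM and 191.5 to 275 CPM in TAZ-4SA and EV, and over 6 pericyte and smooth muscle markers 50.8 to 223 CPM and 72.2 to 190.2 CPM. For 5 astrocyte markers the sums were 61.6 to 109 CPM in TAZ-4SA and 38.1 to 57.7 CPM in EV. Their part in the results was not tested, and in such bulk tumours fewer cells of a type and less RNA per cell cannot be told apart.

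Promoter sequences are shown for the 3 genes called higher or lower whose promoter held the TEAD core motif, since TEAD factors are the DNA-binding partners of TAZ. RefSeq (GRCh38.p14) gave the 250 bases before the start site for 35 of the 48 genes. The motif searched was GGAATG on either strand (CATTCC on the other), shown in capitals, 5′ to 3′ along the gene's own strand. ITGB1 lies at chr10:32958231-32958480 (minus strand), VCL at chr10:73997866-73998115 (plus strand) and ITGA10 at chr1:145910051-145910300 (minus strand).
ITGB1: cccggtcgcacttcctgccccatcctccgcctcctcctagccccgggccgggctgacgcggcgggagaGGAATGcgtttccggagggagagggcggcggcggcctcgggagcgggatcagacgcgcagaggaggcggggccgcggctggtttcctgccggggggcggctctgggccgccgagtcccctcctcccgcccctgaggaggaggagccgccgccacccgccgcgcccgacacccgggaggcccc
VCL: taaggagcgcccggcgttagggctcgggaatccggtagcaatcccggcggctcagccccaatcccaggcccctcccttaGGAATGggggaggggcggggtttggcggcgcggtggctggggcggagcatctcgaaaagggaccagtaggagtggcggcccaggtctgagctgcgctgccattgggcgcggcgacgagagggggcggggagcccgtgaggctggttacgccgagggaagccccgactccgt
ITGA10: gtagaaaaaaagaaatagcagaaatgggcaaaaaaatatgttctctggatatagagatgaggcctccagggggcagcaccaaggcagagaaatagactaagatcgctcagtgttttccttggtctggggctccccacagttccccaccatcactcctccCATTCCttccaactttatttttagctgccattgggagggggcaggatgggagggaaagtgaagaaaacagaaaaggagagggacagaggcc
The match began 182 bases before the start site in ITGB1, 171 in VCL and 91 in ITGA10, and ITGA5, which was not called, had one at 82. These were 4 of 35 promoters (11.4%), close to the 11.9% of 27305 promoters in the same table, so the motif was about as common here as in promoters at large. The AP-1 motif (TGACTCA or TGAGTCA, each the complement of the other) was in the promoter of 1 of the 35 (BCAR1, 2.86%, against 4.16% of all) and the CArG box of serum response factor in 1 (ITGB1BP1, 2.86%, against 1.14%). No match overlapped another. A match is a description of the letters and not a bound site.

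Of the 46 genes that passed the filter on low values (at least 1 CPM on average across the 9 tumours), 10 were called higher and 7 lower in TAZ-4SA, where called means a limma adjusted p under 0.05, and 29 were not called. Over all 15578 genes tested, 9.02% were called higher and 13.3% lower. ITGAL and ITGB1BP2 fell under the filter. Log2 fold changes are TAZ-4SA over EV on the deposited scale, which includes the authors' prior. Subunits and adaptors differed in their counts in this fit, though not under every alternative. Among the 23 subunits tested, 4 were called higher (ITGB2, ITGA3, ITGB1 and ITGAV) and 6 lower (ITGA10, ITGA9, ITGA2B, ITGA7, ITGB4 and ITGB3), with a median log2 fold change of -0.89, near the -0.85 over all genes tested. Among the 20 adaptors, 6 were called higher (LPP, FERMT2, LIMS1, VCL, PARVA and PXN) and 1 lower (TNS2), with a median of 0.03. After quantile normalization, which moved the median over all genes to -0.15 and the calls over all genes from 1405 higher and 2079 lower to 1920 higher and 1624 lower, the counts were 5 higher and 6 lower among subunits and 6 higher and 2 lower among adaptors. With a weight for each tumour (array weights), the counts were 5 higher and 8 lower among subunits and 7 higher and 8 lower among adaptors. Over all genes they were then 2531 higher and 5630 lower. Without EV tumour 1, 2 or 3, 3 subunits were lower. Adaptors called higher numbered 2 without EV tumour 2 and 3 without EV tumour 3. Adaptors called lower numbered 2 without TAZ-4SA tumour 2 or 3 and 3 without tumour 5.

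**Figure D1:**
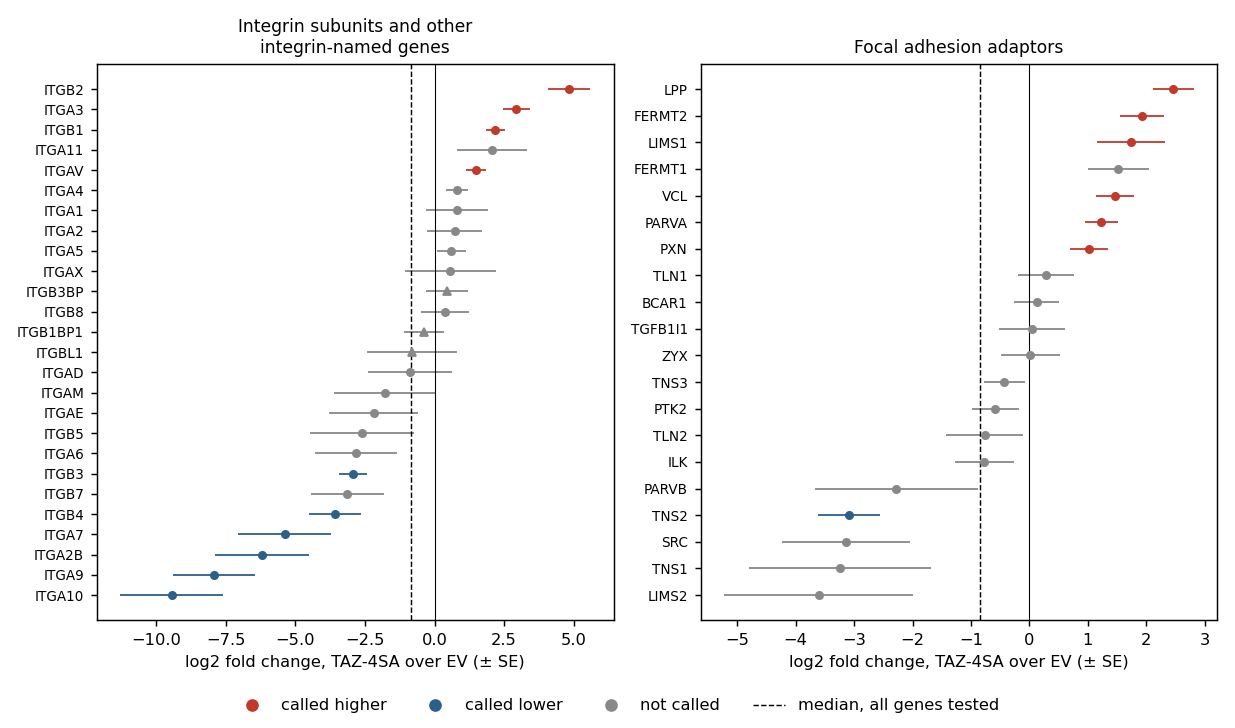
Log2 fold change of TAZ-4SA over EV with its standard error for the 46 genes tested, integrin subunits and integrin-named genes (triangles) on the left and adaptors on the right, coloured by call. The dashed line at -0.85 is the median over all 15578 genes tested. Subunits spread from -9.45 for ITGA10 to 4.84 for ITGB2, adaptors from -3.61 for LIMS2 to 2.46 for LPP, on axes of different width.

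TAZ-4SA tumours were less alike than EV tumours. The median SD of log2 CPM between TAZ-4SA tumours was 2.04 over the 23 subunits and 0.938 over the 20 adaptors, against 0.218 and 0.259 between EV tumours. At least 1 TAZ-4SA tumour had 0 reads for 10 of the 24 subunits and 2 of the 20 adaptors, and no EV tumour had 0 reads for any of them. None of the genes called higher had such a tumour, while 4 of the subunits called lower did. Zeros were more common in TAZ-4SA over the whole table too, at 2990 to 7365 of 18364 genes in a tumour, against 505 to 622 in EV. A value of 0 reads stands at the prior on the log2 scale and widens the SD. The SD was not computed over all genes, so neither measure is shown to be particular to these members.

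ITGB1, the beta subunit shared by most laminin, collagen and fibronectin receptors (chromosome 10 from 32900318 to 32958230), rose in TAZ-4SA. It had 211 CPM at the lowest, 408 at the median and 726 at the highest in TAZ-4SA, against 85.0, 80.2 and 95.3 CPM in EV tumours 1, 2 and 3. Every TAZ-4SA tumour lay above every EV tumour, and the log2 fold change was 2.17 ± 0.34 (SE, limma adjusted p = 0.001011). TAZ-4SA and EV tumours did not overlap for 32% of all genes tested, with TAZ-4SA above for 10.8%. The call held under all 21 alternatives.

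The laminin receptors divided between subunits. ITGA3, which pairs with beta 1 and binds laminin-332 and laminin-511 (chromosome 17 from 50056110 to 50090481), rose to the highest mean level per kb of any subunit. Its TAZ-4SA values were 387 CPM at the lowest, 644 at the median and 1854 at the highest, against 94.7, 114 and 102 CPM in EV. Tumours 3 and 5 were highest at 1854 and 1752 CPM, and all 6 lay above EV. The log2 fold change of ITGA3 was 2.94 ± 0.47 (SE, limma adjusted p = 0.00121), and this call held under all 21 alternatives. ITGB4, the beta subunit that pairs with alpha 6 in hemidesmosomes (chromosome 17 from 75721459 to 75757818), fell to 0.861 CPM at the lowest, 16.3 at the median and 38.9 at the highest in TAZ-4SA, against 109, 132 and 163 CPM in EV. All TAZ-4SA values were below all EV values, as for 21.3% of all genes tested. Its log2 fold change was -3.57 ± 0.95 (SE, limma adjusted p = 0.01834), and it was -2.88 without TAZ-4SA tumour 3. The call was lost without any 1 EV tumour (limma adjusted p = 0.05891, 0.07219 and 0.07981 without EV 1, 2 and 3).

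ITGA7, a laminin receptor subunit of muscle and glial cells that pairs with beta 1 (chromosome 12 from 55684568 to 55716400), had 0 CPM at the lowest, 6.11 at the median and 13.2 at the highest in TAZ-4SA, against 86.0, 87.9 and 103 CPM in EV. TAZ-4SA tumours 2 and 6 had 0 reads, and the groups did not overlap. The log2 fold change of -5.38 ± 1.67 (SE, limma adjusted p = 0.03608) was -4.60 without either of those tumours. ITGA7 was not called without TAZ-4SA tumour 1 (limma adjusted p = 0.05763) or without EV 1, 2 or 3 (limma adjusted p = 0.1231, 0.1255 and 0.1254). ITGA6, the alpha partner of ITGB4, had 0.0615 CPM at the lowest, 30.3 at the median and 53.8 at the highest in TAZ-4SA and 100.6, 97.2 and 111 CPM in EV, so the groups did not overlap. It was not called (log2 fold change -2.83 ± 1.48, limma adjusted p = 0.1867). TAZ-4SA tumour 3 alone had the lowest value, and without it the log2 fold change was -1.61 and ITGA6 was called lower (limma adjusted p = 0.01352).

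**Figure D2:**
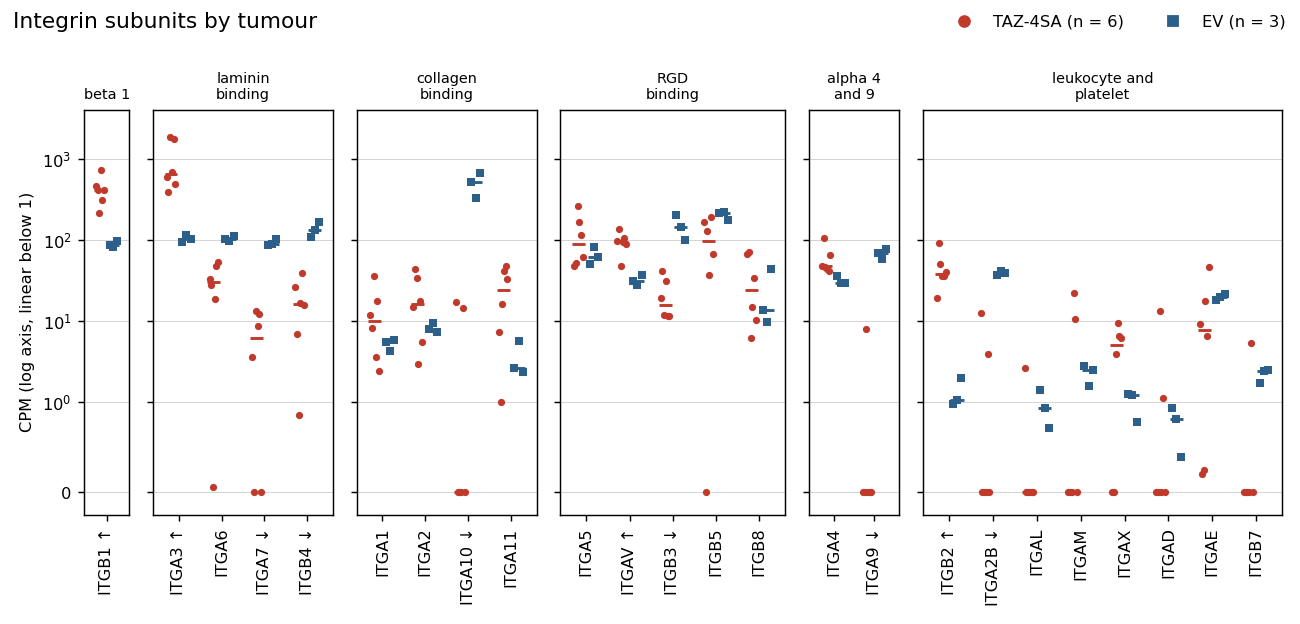
CPM of the 24 integrin subunits in each tumour on a log axis that is linear below 1, with TAZ-4SA (red circles, n = 6) left of EV (blue squares, n = 3) for each gene, bars at the group medians, and arrows for genes called higher or lower. ITGA3 lies between 387 and 1854 CPM in TAZ-4SA and between 94.7 and 114 CPM in EV, while ITGA10 is at 0 in 4 TAZ-4SA tumours and at 329 CPM or more in EV.

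Of the 4 collagen-binding alpha subunits, which all pair with beta 1, 1 fell and 3 were not called. ITGA10, best known from cartilage (chromosome 1 from 145891208 to 145910050), was the subunit with the highest mean level per kb in EV. It had 16.9 and 14.3 CPM in TAZ-4SA tumours 1 and 5 and 0 reads in the other 4, against 517, 329 and 655 CPM in EV. The groups were far apart, with means of 5.20 ± 8.10 CPM in TAZ-4SA (SD, n = 6) and 501 ± 164 CPM in EV (SD, n = 3). Its log2 fold change was -9.45 ± 1.85 (SE, limma adjusted p = 0.003592), and -10.37 and -10.32 without TAZ-4SA tumour 1 and 5. On a scale with a prior of 2 CPM it was -6.87, so its size depends on the prior, and the call held under all 21 alternatives. ITGA1, ITGA2 and ITGA11 had low levels in EV, between 2.32 and 9.36 CPM, and spread from 1.01 to 47.6 CPM in TAZ-4SA. Their log2 fold changes were 0.81 ± 1.10, 0.72 ± 0.99 and 2.07 ± 1.26, with overlapping groups. None was called. ITGA11 was called higher without TAZ-4SA tumour 2 (log2 fold change 2.79, limma adjusted p = 0.03254) and under 3 further alternatives, with quantile normalization giving the highest value (4.59, limma adjusted p = 0.006616).

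The RGD-binding subunits gave 1 rise and 1 fall among 5 tested. ITGAV, the alpha subunit shared by the vitronectin and TGF-beta-activating receptors (chromosome 2 from 186590056 to 186680901), had 47.6 CPM at the lowest, 94.0 at the median and 135 at the highest in TAZ-4SA, against 31.3, 27.4 and 37.1 CPM in EV. All TAZ-4SA tumours were above EV. ITGAV rose by a log2 fold change of 1.498 ± 0.36 (SE, limma adjusted p = 0.01097), a call lost without EV tumour 1 (limma adjusted p = 0.05651) or 2 (limma adjusted p = 0.06991). ITGB3, the beta subunit that joins alpha V in the classical vitronectin receptor and alpha IIb in platelets (chromosome 17 from 47253827 to 47313743), went the other way. It had 11.5 CPM at the lowest, 15.6 at the median and 41.3 at the highest in TAZ-4SA, against 202, 143 and 98.2 CPM in EV, again without overlap. The log2 fold change of -2.93 ± 0.51 (SE, limma adjusted p = 0.001912) held its call under all 21 alternatives. A readthrough gene on the same strand shares 51.6% of ITGB3's exonic bases in GENCODE, so reads of the pair cannot be separated.

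Other partners of alpha V and beta 1 in this class were not called. ITGA5, the fibronectin receptor's alpha subunit, had 47.2 CPM at the lowest, 87.6 at the median and 264 at the highest in TAZ-4SA and 50.4, 80.4 and 60.5 CPM in EV. ITGB5, a second vitronectin-binding partner of alpha V, had 0 CPM at the lowest, 97.1 at the median and 191 at the highest in TAZ-4SA and 215, 222 and 177 CPM in EV. Both overlapped between groups, and the 0 reads of ITGB5 came from TAZ-4SA tumour 2. Its log2 fold change was -2.60 ± 1.87 with that tumour and -1.03 without it. ITGB8, whose pair with alpha V activates latent TGF-beta, had 6.15 to 69.9 CPM in TAZ-4SA and 13.7, 9.65 and 43.6 CPM in EV.

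The 2 subunits of the alpha 4 and alpha 9 branch, which bind VCAM1, fibronectin and tenascin, lay on opposite sides of EV. ITGA9 (chromosome 3 from 37452141 to 37823507) had 7.99 CPM in TAZ-4SA tumour 3 and 0 reads in the other 5, against 69.5, 58.7 and 77.8 CPM in EV. The log2 fold change of ITGA9 was -7.91 ± 1.48 (SE, limma adjusted p = 0.002764), -8.88 without tumour 3 and -4.75 with a pseudocount of 2 CPM. Its antisense neighbour ITGA9-AS1, which overlaps 2.79% of its exonic bases, was also called lower, with averages of 0.140 CPM in TAZ-4SA tumours and 6.16 CPM in EV tumours. ITGA4 had 41.4 CPM at the lowest, 47.1 at the median and 105.1 at the highest in TAZ-4SA and 35.8, 29.1 and 29.1 CPM in EV. Its groups did not overlap, and it was not called (log2 fold change 0.81 ± 0.38, limma adjusted p = 0.1456).

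ITGB2, the beta subunit of the leukocyte integrins (chromosome 21 from 44885953 to 44928815), had the highest fold change of the set. It had 19.4 CPM at the lowest, 37.9 at the median and 90.02 at the highest in TAZ-4SA, against 0.984, 1.05 and 2.00 CPM in EV. Every TAZ-4SA tumour was above EV, tumour 2 furthest, with a log2 fold change of 4.84 ± 0.75 (SE, limma adjusted p = 0.0009607) that held its call under all 21 alternatives. With EV near 1 CPM its size depends on the prior and the scaling, being 3.69 with a pseudocount of 2 CPM and 6.79 with quantile normalization. None of the alpha subunits that pair with it was called. ITGAL had 2.62 CPM in TAZ-4SA tumour 1 and 0 reads in the other 5, ITGAM had reads in tumours 4 and 5 (21.8 and 10.6 CPM) and ITGAD in tumours 3 and 5 (13.3 and 1.12 CPM). ITGAX had 0 reads in tumours 1 and 2 and up to 9.45 CPM in the others. In EV these 4 genes lay between 0.387 and 2.76 CPM.

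Of 12 leukocyte and microglial markers, 6 were in the table and their sum was 0 to 23.7 CPM in TAZ-4SA and 3.79 to 4.58 CPM in EV. In TAZ-4SA tumours 1 and 4 all 6 were at 0 reads, and ITGB2 stood at 19.4 and 35.6 CPM there. ITGAM and ITGAX had 0 reads in tumour 1 and 21.8 and 9.45 CPM in tumour 4. PTPRC, the leukocyte common antigen, had 12.4 CPM in tumour 2 and 0 reads in the other 5 TAZ-4SA tumours. P2RY12, a microglial receptor, had 0 reads in all 6 TAZ-4SA tumours, and TYROBP, LYZ and CD14 each had 0 reads in 5. CSF1R had 0 reads in 2 TAZ-4SA tumours, 3.52 CPM at the median and 15.7 CPM at the highest. In EV it had 0.838 to 1.28 CPM, and it was not called. A part of mouse reads in these values, or of leukocytes in those of ITGB2, was not tested. An antisense gene, ITGB2-AS1, overlaps 6.29% of ITGB2's exonic bases and had 6.77 ± 5.15 CPM in TAZ-4SA (SD, n = 6) and 1.39 ± 0.631 CPM in EV (SD, n = 3).

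ITGA2B, the platelet alpha IIb subunit that pairs with beta 3 (chromosome 17 from 44372181 to 44389649), had 12.6 and 3.92 CPM in TAZ-4SA tumours 1 and 5 and 0 reads in the other 4, against 36.9, 41.6 and 38.4 CPM in EV. The groups did not overlap and the log2 fold change was -6.20 ± 1.69 (SE, limma adjusted p = 0.02106). It was -7.11 and -6.78 without TAZ-4SA tumour 1 and 5 and -3.62 with a pseudocount of 2 CPM, and the call was lost without EV 1, 2 or 3 (limma adjusted p = 0.07937, 0.08504 and 0.07435). Of 6 platelet markers 2 were in the table, and their sum was 0 to 14.3 CPM in TAZ-4SA and 5.12 to 9.22 CPM in EV, with TUBB1 at 0 in all TAZ-4SA tumours. The sum over 7 endothelial markers was 0 to 16.8 CPM in TAZ-4SA and 22.7 to 26.4 CPM in EV. The part of either in the ITGA2B and ITGB3 values was not tested. ITGAE and ITGB7, which pair on intraepithelial lymphocytes, were not called. ITGAE had 0.202 to 46.8 CPM in TAZ-4SA and 18.3, 19.5 and 21.5 CPM in EV. ITGB7 had reads in TAZ-4SA tumour 5 only (5.32 CPM) and 1.73, 2.44 and 2.45 CPM in EV, and the opposite-strand gene ZNF740 covers 51.4% of its exonic bases. Without that tumour ITGB7 was called lower (log2 fold change -4.005, limma adjusted p = 0.001975).

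To compare levels between subunits, CPM was divided by the length of the transcript with the longest coding sequence. Summed over the 17 alpha subunits, the level was 176 to 601 CPM per kb in TAZ-4SA (median 248) and 228, 202 and 267 CPM per kb in EV, and over the 7 beta subunits 105 to 227 (median 155) in TAZ-4SA and 143, 133 and 125 in EV. The sums overlapped. Shares of 6 alpha subunits (ITGA3, ITGA10, ITGA7, ITGA9, ITGA6 and ITGA2B) and 5 beta subunits (ITGB1 to ITGB5) lay apart between groups, and those of the other 11 alpha and 2 beta subunits overlapped. ITGA3 made up 59.9% to 84.8% of the alpha sum in TAZ-4SA (median 71.2%), against 11.4%, 15.4% and 10.46% in EV. ITGA10 made up 0% to 1.44% in TAZ-4SA, against 43.1%, 31.0% and 46.7% in EV. ITGA3 led in every TAZ-4SA tumour and ITGA10 in every EV tumour. ITGB1 made up 53.7% to 85.9% of the beta sum in TAZ-4SA (median 68.1%), against 15.9%, 16.2% and 20.51% in EV. ITGB3 made up 1.87% to 6.60% in TAZ-4SA, against 35.2%, 27.0% and 19.7% in EV, and ITGB4 0.138% to 4.29%, against 12.9%, 16.8% and 22.1%. In EV no single beta subunit exceeded 38.3%, the share of ITGB5 in EV tumour 2. A share of a sum falls when another member rises, so these are not independent results. Shares within other gene families were not computed.

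**Figure D3:**
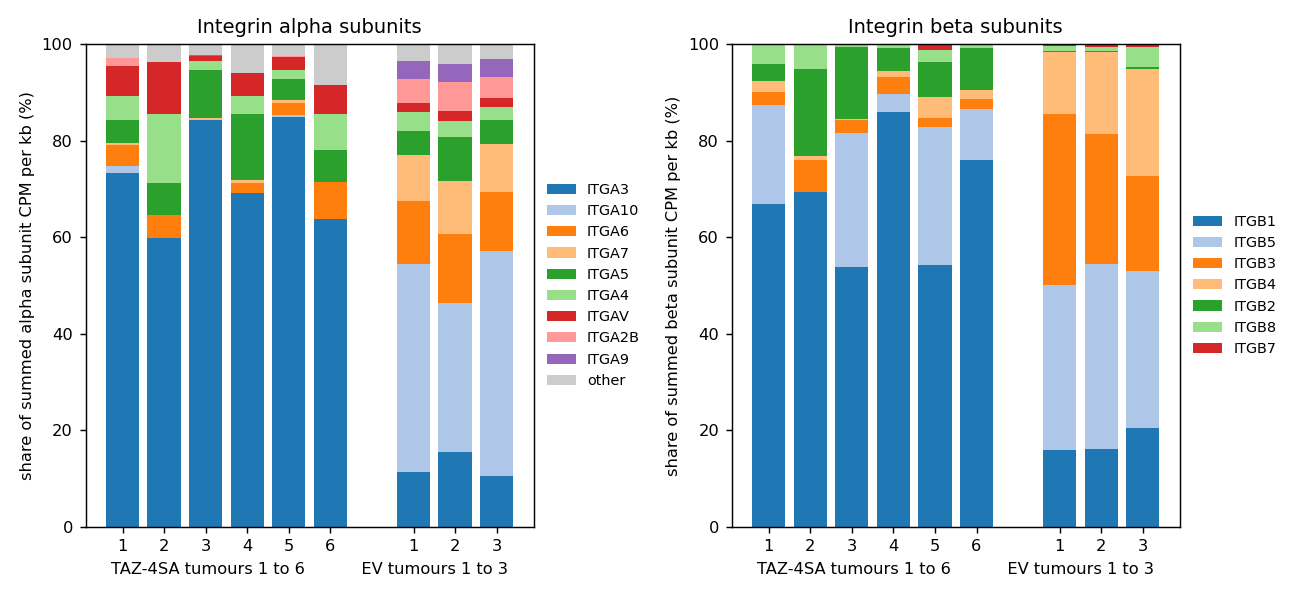
Shares of each alpha subunit (left) and beta subunit (right) in the summed CPM per kb of that class, 1 bar for each tumour, TAZ-4SA tumours 1 to 6 before EV tumours 1 to 3. ITGA3 and ITGB1 fill more than 50% of every TAZ-4SA bar, while ITGA10 takes 31.0% to 46.7% of the EV alpha bars and ITGB5 32.4% to 38.3% of the EV beta bars.

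None of the 3 integrin-named genes tested that are no subunits was called. ITGB1BP1, which binds the beta 1 tail and restrains its activation, had 8.24 CPM at the lowest, 72.8 at the median and 132 at the highest in TAZ-4SA and 68.5, 66.2 and 55.8 CPM in EV. The opposite-strand gene ASAP2, which was called higher (not without EV tumour 2, limma adjusted p = 0.05708), covers 39.5% of its exonic bases. ITGB3BP, a centromere protein also named for binding beta 3, had 4.48 to 84.5 CPM in TAZ-4SA and 21.6, 15.6 and 24.6 CPM in EV, and ITGBL1, a secreted protein with integrin-like repeats, 0 to 8.34 CPM and 0.609, 0.698 and 3.03 CPM. ITGB1BP2, a muscle protein that binds the beta 1 tail, was under the filter, with 0 reads in every TAZ-4SA tumour and 2.44, 2.21 and 1.03 CPM in EV. With a floor of 3 reads in each library, the level of ITGB1BP2 in TAZ-4SA was lower by at least 4.52-fold, a bound for counting error only.

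Among the proteins that switch integrins on, the kindlins stood above EV and the talins did not. FERMT2, kindlin-2, the widely expressed form (chromosome 14 from 52857273 to 52951050), had 56.5 CPM at the lowest, 99.4 at the median and 136 at the highest in TAZ-4SA, against 24.4, 21.0 and 26.2 CPM in EV. No values overlapped, and FERMT2 rose by a log2 fold change of 1.93 ± 0.37 (SE, limma adjusted p = 0.003203), called under all 21 alternatives. FERMT1, kindlin-1, the epithelial form, had 23.7 CPM at the lowest, 54.6 at the median and 119.8 at the highest in TAZ-4SA and 21.4, 18.4 and 14.96 CPM in EV, also without overlap. It missed the threshold (log2 fold change 1.52 ± 0.52, limma adjusted p = 0.05306) and passed it without TAZ-4SA tumour 2 (limma adjusted p = 0.03797) or 3 (limma adjusted p = 0.02036). TLN1, the main talin, had 298 CPM at the lowest, 652 at the median and 1597 at the highest in TAZ-4SA and 632, 662 and 465 CPM in EV. TLN2 had 18.7, 48.4 and 182 CPM at the same points in TAZ-4SA and 99.4, 93.8 and 70.9 CPM in EV. Both overlapped, with log2 fold changes of 0.28 ± 0.48 and -0.77 ± 0.66.

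In the complex of ILK, PINCH and parvin, which binds beta tails and actin, 1 paralog each of PINCH and parvin was called higher, and ILK was not called. PARVA, alpha-parvin (chromosome 11 from 12376436 to 12535356), had 83.4 CPM at the lowest, 114 at the median and 126 at the highest in TAZ-4SA, against 54.3, 46.0 and 38.8 CPM in EV. The groups lay apart, with a log2 fold change of 1.23 ± 0.29 (SE, limma adjusted p = 0.009118), and the call was lost without EV tumour 2 (limma adjusted p = 0.05697) or 3 (limma adjusted p = 0.05867). PARVB, beta-parvin, had 0.101 CPM at the lowest, 6.30 at the median and 21.2 at the highest in TAZ-4SA and 20.2, 27.3 and 20.6 CPM in EV, with tumour 4 above 2 EV tumours. It was not called (log2 fold change -2.28 ± 1.40, and -1.43 without tumour 2, which had the lowest value).

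LIMS1, PINCH-1 (chromosome 2 from 108533671 to 108687246), had 28.9 CPM at the lowest, 187 at the median and 255 at the highest in TAZ-4SA, against 38.4, 35.7 and 49.6 CPM in EV. TAZ-4SA tumour 3 lay below all 3 EV tumours and the other 5 lay above them. The log2 fold change was 1.74 ± 0.58 (SE, limma adjusted p = 0.04892), the closest to the threshold of all calls. It was lost under 15 of 21 alternatives, among them without TAZ-4SA tumour 1, 2, 4, 5 or 6 (limma adjusted p = 0.09856, 0.08456, 0.09794, 0.0837 and 0.1008) and without EV 1, 2 or 3 (limma adjusted p = 0.133, 0.147 and 0.09475). LIMS1 also has near-identical relatives, LIMS3 and LIMS4, so its reads are uncertain. LIMS2, PINCH-2, had 1.44, 11.2 and 3.67 CPM in TAZ-4SA tumours 1, 5 and 6, 0 reads in the other 3, and 11.1, 7.33 and 9.73 CPM in EV. ILK itself, the pseudokinase at the centre, had 27.9 CPM at the lowest, 75.9 at the median and 194 at the highest in TAZ-4SA and 148, 153 and 91.9 CPM in EV. Neither LIMS2 nor ILK was called, and both overlapped between groups, although LIMS2 was called lower without TAZ-4SA tumour 5 (log2 fold change -4.38, limma adjusted p = 0.04319).

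**Figure D4:**
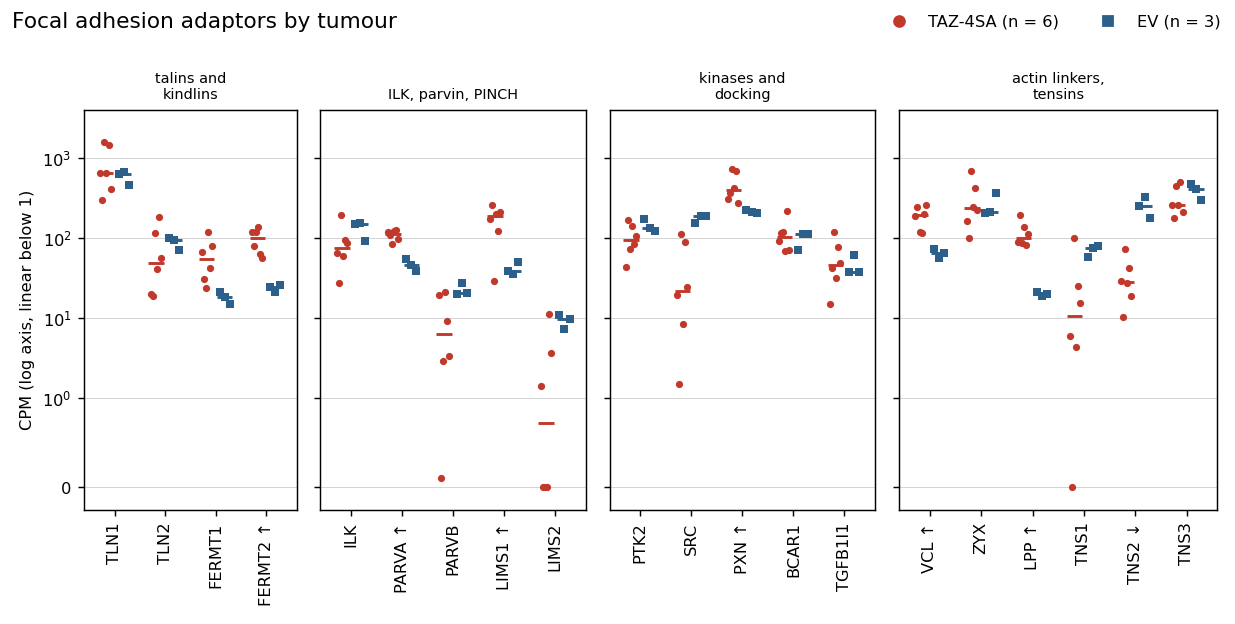
CPM of the 20 focal adhesion adaptors in each tumour on a log axis that is linear below 1, TAZ-4SA (red circles, n = 6) left of EV (blue squares, n = 3), with group medians as bars and arrows for genes called higher or lower. LPP, FERMT2, VCL and PARVA show no overlap, with LPP between 81.7 and 196 CPM in TAZ-4SA and between 18.8 and 21.5 CPM in EV.

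Of the kinases and docking proteins, PXN alone was called. PXN, paxillin, the docking protein phosphorylated by focal adhesion kinase (chromosome 12 from 120210447 to 120265730), had 273 CPM at the lowest, 394 at the median and 720.5 at the highest in TAZ-4SA, against 223, 210 and 206 CPM in EV. All TAZ-4SA values lay above EV, and tumours 3 and 5 were highest. Its log2 fold change was 1.02 ± 0.33 (SE, limma adjusted p = 0.04425), and the call was lost without TAZ-4SA tumour 3, 4 or 5 (limma adjusted p = 0.05681, 0.07281 and 0.06273) or EV 1, 2 or 3 (limma adjusted p = 0.1209, 0.1363 and 0.1261). The antisense gene PXN-AS1 overlaps 7.52% of its exonic bases. TGFB1I1, known as Hic-5, a paralog of paxillin, had 14.96 CPM at the lowest, 45.9 at the median and 118 at the highest in TAZ-4SA and 38.1, 61.0 and 37.8 CPM in EV. Its log2 fold change was 0.04 ± 0.56, and -0.05 under median-of-ratios scaling.

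SRC, the tyrosine kinase that acts with focal adhesion kinase, had 1.51 CPM at the lowest, 21.8 at the median and 114 at the highest in TAZ-4SA and 154, 191 and 189.7 CPM in EV. Every TAZ-4SA tumour was below EV, over a range that ran from 1.51 CPM in tumour 2 to 114 CPM in tumour 3. SRC missed the threshold (log2 fold change -3.14 ± 1.09, limma adjusted p = 0.06031) and passed it without TAZ-4SA tumour 2, 3 or 5 (limma adjusted p = 0.04426, 0.02593 and 0.04908), with a log2 fold change of -2.42 without tumour 2. PTK2, focal adhesion kinase, had 43.6 CPM at the lowest, 95.3 at the median and 169 at the highest in TAZ-4SA and 174, 132 and 122 CPM in EV. BCAR1, the docking protein p130Cas, had 68.5, 103 and 219.7 CPM at those points in TAZ-4SA and 71.2, 113 and 111 CPM in EV. Neither was called, with log2 fold changes of -0.58 ± 0.41 and 0.12 ± 0.38.

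Among the actin linkers, LPP and VCL rose. LPP, a LIM protein of the zyxin family (chromosome 3 from 188153021 to 188890671), had 81.7 CPM at the lowest, 100.4 at the median and 196 at the highest in TAZ-4SA, against 21.4, 18.8 and 20.1 CPM in EV. The lowest TAZ-4SA value was well above the highest EV value, and the log2 fold change of 2.46 ± 0.35 (SE, limma adjusted p = 0.0005598) was called under all 21 alternatives. ZYX, zyxin itself, had 99.8 CPM at the lowest, 235 at the median and 690.1 at the highest in TAZ-4SA and 208, 208 and 364 CPM in EV, with a log2 fold change of 0.02 ± 0.51 that changed sign with the scaling (-0.07 under median-of-ratios scaling). VCL, vinculin, which is recruited to talin under force (chromosome 10 from 73998116 to 74121363), had 116 CPM at the lowest, 196 at the median and 258 at the highest in TAZ-4SA, against 73.4, 56.8 and 65.8 CPM in EV. The groups did not overlap, and VCL rose by a log2 fold change of 1.46 ± 0.33 (SE, limma adjusted p = 0.007715), a call lost without EV tumour 2 (limma adjusted p = 0.0502). AP3M1, on the opposite strand, overlaps 16.6% of its exonic bases and was not called.

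The tensins, which bind beta tails and actin in the fibrillar adhesions that follow focal adhesions, gave 1 fall among 3 genes. TNS2 (chromosome 12 from 53046991 to 53064379) had 10.4 CPM at the lowest, 28.6 at the median and 72.5 at the highest in TAZ-4SA, against 248, 321 and 176 CPM in EV. All TAZ-4SA tumours lay below EV, and TNS2 fell by a log2 fold change of -3.09 ± 0.53 (SE, limma adjusted p = 0.001715). TNS1 had 0 CPM at the lowest, 10.6 at the median and 100.9 at the highest in TAZ-4SA and 57.4, 74.5 and 78.5 CPM in EV, where tumour 3 alone was above EV. TNS3 had 177, 257 and 503 CPM at those points in TAZ-4SA and 473, 406 and 301 CPM in EV. Neither was called (log2 fold changes -3.24 ± 1.56 and -0.43 ± 0.35). TNS1 had 0 reads in TAZ-4SA tumour 2 and a log2 fold change of -2.11 without it.

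Expressed per kb, the shares of at least 1 paralog lay apart between TAZ-4SA and EV in 4 of 5 paralog groups. Such shares were not computed for other gene families, so this count is not shown to be particular to these groups. TLN1 was 90.9% to 97.8% of the talins in TAZ-4SA, against 89.6%, 90.5% and 89.8% in EV, a gap of 0.41 percentage points. PARVA was 50.8% to 99.5% of the parvins in TAZ-4SA, against 32.6%, 23.3% and 25.3% in EV. Per kb, alpha-parvin led in every TAZ-4SA tumour and beta-parvin in every EV tumour. The lead of beta-parvin in EV comes from the transcript lengths used, 8719 bases for PARVA and 1569 for PARVB. In CPM, PARVA was above PARVB in every EV tumour too. LIMS1 was 92.4% to 100% of the PINCH genes in TAZ-4SA, against 79.6%, 84.6% and 85.2% in EV. TNS3 was 71.0% to 91.7% of the tensins in TAZ-4SA, against 52.7%, 42.6% and 47.9% in EV. Of the sum of FERMT1 and FERMT2, FERMT2 was 53.0% to 88.9% in TAZ-4SA and 64.4%, 64.4% and 73.6% in EV, and those shares overlapped. That sum, without FERMT3, was 28.0 to 65.3 CPM per kb in TAZ-4SA and 11.67, 10.04 and 10.99 CPM per kb in EV.

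**Figure D5:**
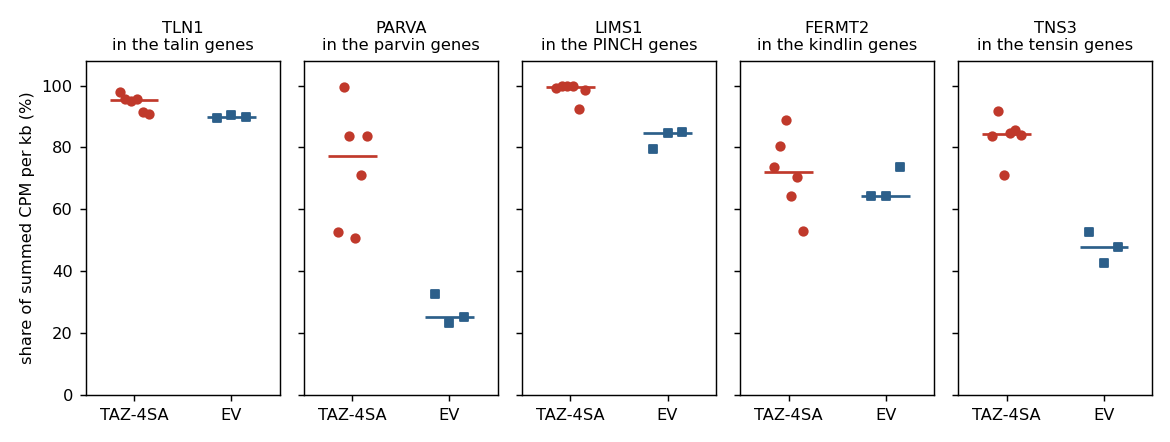
Share of TLN1, PARVA, LIMS1, FERMT2 and TNS3 in the summed CPM per kb of the talin, parvin, PINCH, kindlin and tensin genes of the set, TAZ-4SA (red circles, n = 6) left of EV (blue squares, n = 3), bars at the medians. The groups lie apart for PARVA, LIMS1 and TNS3, narrowly so for TLN1, and overlap for FERMT2.

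Within the TAZ-4SA group, tumours 3 and 5 held the highest 2 of the 6 values for 11 of the 20 adaptors (55%), namely TLN1, TLN2, ILK, PXN, SRC, BCAR1, TGFB1I1, ZYX, TNS1, TNS2 and TNS3. The same pair held them for 15.9% of all 15578 genes tested and for 4 of the 23 subunits (17.4%), ITGA3, ITGA7, ITGA1 and ITGAD. Only 2 of these adaptors were called, PXN and TNS2. The remaining adaptors called higher had their highest 2 values in other pairs, LIMS1 and VCL in tumours 2 and 6, LPP in 2 and 4, FERMT2 in 3 and 4 and PARVA in 4 and 5. This pair was singled out after the values were seen. Tumours 3 and 5 had 16030692 and 3299325 reads, with 6790 and 2990 genes at 0 reads, and what sets them apart was not tested.

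Leaving out several TAZ-4SA tumours together changed further calls. Without tumours 2, 3 and 4, which had 6573 to 7365 genes at 0 reads, the platelet subunit ITGA2B and paxillin lost their calls, with log2 fold changes of -4.32 (limma adjusted p = 0.08111) for ITGA2B and 0.86 (limma adjusted p = 0.1232) for PXN. ITGA6 (-1.24, limma adjusted p = 0.01976), TNS1 (-2.38, limma adjusted p = 0.02114) and SRC (-2.35, limma adjusted p = 0.02699) were then called lower, and FERMT1 (1.74, limma adjusted p = 0.01305) higher. ITGA10 and ITGB4 stayed called lower, with smaller log2 fold changes of -7.19 and -2.39. ITGB5 and ITGAE, not called either way, had log2 fold changes of -0.67 and -0.49, against -2.60 and -2.19 with all tumours. Without tumours 5 and 6, the 2 of lowest depth, ITGA7 (-5.03, limma adjusted p = 0.05577) and LIMS1 (1.63, limma adjusted p = 0.1571) lost their calls, and ITGB7 (-4.005, limma adjusted p = 0.0002596) and LIMS2 (-5.15, limma adjusted p = 0.01074) were called lower.

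Ligands of these receptors were not of 1 direction. Of 28 listed ligand genes, 8 were called higher and 8 lower, with a median log2 fold change of -0.77. Over all genes tested, 9.02% were called higher and 13.3% lower, with a median of -0.85. The 4 with the smallest p were THBS1, COL1A1, EDIL3 and CCN1, all higher. EDIL3, a secreted RGD protein that binds alpha V integrins, had 117 to 524 CPM in TAZ-4SA and 19.2, 14.5 and 13.7 CPM in EV (log2 fold change 4.11 ± 0.44, SE, limma adjusted p = 6.383e-05). The list holds 10 collagen IV, laminin and nidogen genes of basement membranes, grouped here after their values were seen. Of these LAMA4, LAMA5, LAMB2, LAMC1 and NID1 were called lower, COL4A1 was called higher (mean 409.5 CPM in TAZ-4SA tumours, against 144 CPM in EV tumours), and COL4A2, LAMA1, LAMA2 and LAMB1 were not called. LAMC1, the gamma chain of most laminins, averaged 397 CPM in TAZ-4SA tumours and 1454 CPM in EV, and LAMA4 averaged 16.1 CPM and 650.2 CPM (log2 fold change -6.36, and -5.21 without TAZ-4SA tumour 3). LAMA5 was not called without TAZ-4SA tumour 1 (limma adjusted p = 0.05145) or EV 2 or 3 (limma adjusted p = 0.07961 and 0.0884). CCN1 gave a log2 fold change of 5.28 over all tumours, 4.66 without EV 2 and 6.31 without EV 3.

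Of 5 further hemidesmosome genes, 2 were higher and 1 lower, against 9.02% and 13.3% of all genes tested. Their median log2 fold change was 1.496. LAMB3, a chain of laminin-332, had 121 to 318 CPM in TAZ-4SA and 6.00, 9.30 and 8.51 CPM in EV. LAMA3, which encodes another chain of that laminin, had 4.20 CPM in TAZ-4SA tumour 5, 0 reads in the other 5 and 4.59, 5.99 and 5.48 CPM in EV. COL17A1, the transmembrane collagen of hemidesmosomes, had 3.67 to 18.8 CPM in TAZ-4SA and at most 0.291 CPM in EV. LAMA3 was not called without TAZ-4SA tumour 6 (limma adjusted p = 0.05027) or EV 1, 2 or 3 (limma adjusted p = 0.09354, 0.1064 and 0.09136). It had a log2 fold change of -4.42 with all tumours and -5.24 without tumour 5. So LAMB3 was called higher, as was the laminin-332 receptor subunit ITGA3, and LAMA3 was called lower, as was ITGB4. The sum over 3 epithelial markers (KRT8, KRT18 and CDH1) was 205 to 556 CPM in TAZ-4SA and 115 to 202 CPM in EV, and its part in these values was not tested.

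Of 19 genes that set integrin activity or sit beside integrins in the membrane, 4 were higher and 3 lower. The shares over all genes tested were 9.02% and 13.3%. The median log2 fold change of the 19 was 0.05. PLAUR, the urokinase receptor, had 27.2 to 246 CPM in TAZ-4SA and 7.64, 7.91 and 9.54 CPM in EV, and RAP1B, the small GTPase that recruits talin, had 43.9 to 179.9 CPM in TAZ-4SA and 14.7, 17.8 and 27.1 CPM in EV. DAB2, an endocytic adaptor for integrins, had 105 to 253 CPM in TAZ-4SA and 32.5, 29.1 and 31.7 CPM in EV. All 3 were higher without overlap. The tetraspanin gene CD81 was lower, with 30.6 to 153 CPM in TAZ-4SA and 244, 224 and 248 CPM in EV.

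In the list of 20 tested adhesion kinases and signalling adaptors, 6 were higher and 2 lower (median -0.19). Of all genes tested, 9.02% were higher and 13.3% lower. ASAP1, a GTPase-activating protein of focal adhesions, had 295 to 573 CPM in TAZ-4SA and 41.1, 36.5 and 52.9 CPM in EV (log2 fold change 3.29 ± 0.30, SE, limma adjusted p = 2.054e-05). The phosphatase genes PTPN11 and PTPN12 were also higher, with 138 to 327 CPM and 70.3 to 424 CPM in TAZ-4SA, against 48.8 to 62.9 CPM and 35.8 to 56.0 CPM in EV. EFS, a relative of BCAR1, had 0 reads in every TAZ-4SA tumour and 73.7, 128 and 45.5 CPM in EV. With the same floor, the level of EFS in TAZ-4SA was lower by at least 196-fold, a bound for counting error only. It covers no other source of 0 reads. NEDD9, of the same family, was also lower, with means of 38.7 CPM in TAZ-4SA tumours and 132 CPM in EV, a call lost without EV 1 (limma adjusted p = 0.1154) or 3 (limma adjusted p = 0.1286), while BCAR1 was not called.

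Of 27 other actin linkers and LIM proteins, 7 were higher and 5 lower (median 0.06), against 9.02% and 13.3% of all genes tested. AJUBA, a LIM protein of the zyxin family that also binds Hippo kinases, had 222 to 512 CPM in TAZ-4SA and 10.2, 16.1 and 20.2 CPM in EV. PALLD, palladin, an actin-bundling protein, had 226 to 549 CPM in TAZ-4SA and 30.4, 33.6 and 18.9 CPM in EV. With LPP, AJUBA was the second zyxin-family gene called higher. ZYX, TRIP6 and LIMD1, of the same family, were not called (log2 fold changes 0.02, -0.51 and -0.18). PDLIM1 and the actin-binding NEXN completed the 4 with the smallest p, at 195 to 372 CPM and 22.4 to 202 CPM in TAZ-4SA and at 46.6 to 60.2 CPM and 2.84 to 5.29 CPM in EV.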

How the data were processed

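Total RNA was extracted with TRIzol from 9 tumours, and libraries were made with a SMART-Seq kit and Nextera XT, per the labels' protocols. That chemistry keeps no strand, so reads of overlapping genes stay together. HISAT2, edgeR and GRCh38 appear in the submitters' processing notes. How genes were counted, with which annotation, and whether mouse reads were removed is not given in the sources used here. Since labels do not tie tumours to animals, p-values measure only the spread between these samples, which may be technical.

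Deposited by the authors were log2 CPM values of 18364 genes. The lowest value, -2.786, was the same in all 9 tumours and equals a prior of 0.145 CPM. Once it was removed, values under 5000 reads were whole reads within 0.1 read in 100% of cases. Intervals and floors cover counting error only, since reads carry no molecular identifiers.

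The members and the gene lists were chosen with earlier results of these data known; 1 gene of the hemidesmosome list is not reported here. The fit was limma 3.58.1 (R 4.3.3) with trend and robust variance moderation of the deposited log2 values, run on the 15578 genes that averaged 1 CPM or more, two-sided, with Benjamini-Hochberg adjustment over all of them at 0.05. Fold changes contain the authors' prior, and for low genes and genes with 0 reads their size and even sign can depend on it. With a pseudocount of 2 CPM, ITGB7 moved from -3.13 to -0.76 and ITGBL1 from -0.82 to 0.11. WWTR1 had an exact permutation test. Values are given in full for members called, not overlapping or with a called paralog, and for up to 4 called genes with the smallest p of each further list. Transcript lengths and overlaps came from GENCODE 29, coordinates and promoters from RefSeq GRCh38.p14. Alternatives were a pseudocount of 0.1 or 2 CPM, median-of-ratios and quantile scaling, no filter or 10 CPM, array weights, a replicate block, limma-voom on recovered reads (also with weights per group), and tumours left out. Within each group, every pair of tumours differed beyond sampling noise.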

Additional observations from a re-analysis of the deposited data

Results flagged for a closer look

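Among the 6 TAZ-4SA tumours, 1 tumour lay far from the others for 5 of the 46 members checked, by a gap to its nearest neighbour above 0.625 of the whole range. Chance flags about 1 in 20 groups only where values are normally distributed and without ties. Tumours at 0 reads share the same value, so that rate does not hold for ITGB7 and ITGA9, and their gap of 1 follows from the ties. TAZ-4SA tumour 3 accounted for 3 of the 5. Its ITGA6 value was 0.0615 CPM (gap 0.811 of the range) and its LIMS1 value 28.95 CPM (0.657), both the lowest, and its ITGA9 value of 7.99 CPM was the only one above 0 (gap 1). In tumour 5, ITGB7 had 5.32 CPM and all others 0 (gap 1). In tumour 2, ITGB5 had 0 CPM (0.771).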

How the results depend on the processing

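No gene that was called changed direction under the alternatives run, and the cause of each shift was not tested. ITGB1, ITGA3, ITGB2, ITGB3, ITGA10, LPP and FERMT2 kept their calls under all 21 alternatives. Over the members and the further genes named, 1480 values kept their side of the threshold, 73 lost it, 43 gained it and 33, all of genes not called, changed sign. Depth limits genes near 1 CPM, where 3 reads equal up to 0.917 CPM in TAZ-4SA tumour 6. Genes at 0 reads did not fall with depth among TAZ-4SA tumours. Tumour 4 had 31468135 reads and 6573 genes at 0 reads, and tumour 5 had 3299325 reads and 2990.

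With each tumour left out in turn, subunits called higher ranged from 3 to 5 and called lower from 3 to 7, adaptors called higher from 2 to 6 and lower from 1 to 3, and all genes called higher from 799 to 1685 and lower from 852 to 2688. The log2 difference of WWTR1 ranged from 1.34 to 1.55, and its exact p was 0.07143 without any 1 EV tumour, where fewer samples set the smallest p. Without TAZ-4SA tumours 2, 3 and 4 it was 1.45 (exact p = 0.1), and without tumours 5 and 6 it was 1.43 (exact p = 0.05714).

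Adaptors called lower numbered 2 with a pseudocount of 2 CPM, median-of-ratios or quantile scaling or without tumours 5 and 6, 3 with limma-voom or without tumours 2, 3 and 4, 4 with limma-voom and weights per group and 8 with array weights. All genes called higher numbered 2531 with array weights and 2181 with limma-voom and weights per group. All genes called lower numbered 3384 with no filter, 967 at 10 CPM, 5630 with array weights, 3646 with limma-voom and 4745 with weights per group as well.

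The replicate numbers did not pair the tumours (correlations of same-numbered deviations 0.031, 0.004 and -0.047). With the number as a block, on tumours 1 to 3 of each group, 3 subunits were higher and 4 lower, 2 adaptors higher and 0 lower, and 604 of all genes higher. ITGA9 (-6.94, limma adjusted p = 0.05919) was among the calls lost there.

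The sign changes were in log2 fold changes of 10 members. TGFB1I1 was -0.0469 with median-of-ratios scaling, -0.13 with array weights, -0.18 and -0.17 with limma-voom without and with weights per group, -0.20 without tumours 2, 3 and 4, -0.18 without tumours 5 and 6, -0.0756 with the replicate block and, at the extremes with 1 tumour left out, -0.23 and 0.36. ZYX was -0.0733 with median-of-ratios scaling, -0.0060 without tumours 2, 3 and 4, -0.12 without 5 and 6, -0.16 with the block and -0.27 to 0.28 with 1 tumour left out. BCAR1 was -0.00851 without tumours 5 and 6 and -0.10 to 0.24 with 1 left out. With 1 left out, ITGB1BP1 ranged from -0.65 to 0.15 and ITGB8 from -0.0816 to 1.00. ITGB3BP was -0.0783 without tumours 2, 3 and 4. ITGBL1 was 0.11 with a pseudocount of 2 CPM, 1.41 with quantile normalization and 0.19 with array weights, ITGAM 1.08 with quantile normalization, ITGAD 0.16 with a pseudocount of 2 CPM and 1.19 with quantile normalization, and ITGAX -1.46 with the block and -0.34 without tumours 5 and 6.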
